A study of Mus musculus with 4 samples.

Results

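The sarcomeric myosin heavy chains are the motor proteins of the thick filament of striated muscle. They were taken as every probe set whose platform gene symbol was Myh1, Myh2, Myh3, Myh4, Myh6, Myh7, Myh8 or Myh13, where a probe set is a group of short array probes that reports 1 value. Of the 8 genes, 7 had a probe set of their own, out of 18194 genes with one on the array, and these and their shared probe sets made up 13 of 45101. Of these 13, 11 carried a single gene symbol and 2 carried both Myh7 and Myh6. The sources used here assigned no probe set to Myh13, the chain known from eye muscles, and it was not analysed here. Total RNA of the mouse left hemi-diaphragm, the main muscle of breathing, was measured on 2 arrays of the synaptic region and 2 arrays of the non-synaptic region. The labels used here give no strain, age, sex or treatment of the mice, and leave unsaid whether animals were pooled or shared between arrays. Arrays are called 1 and 2 after the last digit of the sample titles, which the titles do not explain.

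A muscle fibre is typed by the heavy chain it makes, because the chain sets how fast the motor splits ATP and so how fast the fibre shortens. In adult mouse muscle Myh7 encodes the slow chain of type I fibres, Myh2 the chain of fast type IIA fibres, Myh1 that of type IIX fibres and Myh4 that of the fastest, type IIB. Myh3 encodes the embryonic chain and Myh8 the perinatal chain, which adult chains largely replace after birth and which return in regenerating fibres. Myh6 encodes the alpha chain of heart muscle and, with Myh7, forms a pair of neighbouring genes. The fast and developmental chains lie side by side in a cluster in which Myh3, Myh2, Myh1, Myh4, Myh8 and Myh13 follow each other in this order in RefSeq. The motor nerve meets the fibres in a narrow central band, so the comparison asks whether the muscle within this band and the muscle outside it carry the same chains.

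Of the chains of adult limb and trunk muscle, Myh4 was lower in the synaptic region by 2.50-fold, while the differences of Myh1, Myh2 and Myh7 were smaller than the spread between arrays. The embryonic chain Myh3 was higher in the synaptic region by 2.74-fold. Neither difference passed the test over all probe sets. The test was limma's moderated fit of log2 intensity, adjusted by Benjamini and Hochberg's method across 26480 probe sets that passed a filter on dim signal. Of the 13 member probe sets, 12 passed that filter, and 0 of the 12 were called at an adjusted p under 0.05, against 0.0113% of all probe sets tested. At an unadjusted p under 0.05 the count was 2 of 12, against 0.986% of all tested. For 1 of the 12 probe sets the synaptic values both exceeded the non-synaptic ones, against 9.89% of all tested, and for 1 of the 12 both were below them, against 9.98%. These 2 probe sets, of Myh3 and Myh4, also differed by at least 2-fold, which held for 0.532% of all tested in the higher direction and 0.287% in the lower. The median difference of the 12 was -0.09 on the log2 scale, against -0.01 over all probe sets tested. With 2 arrays a region, p-values measure only the spread between these arrays, which may be technical.

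**Figure D1:**
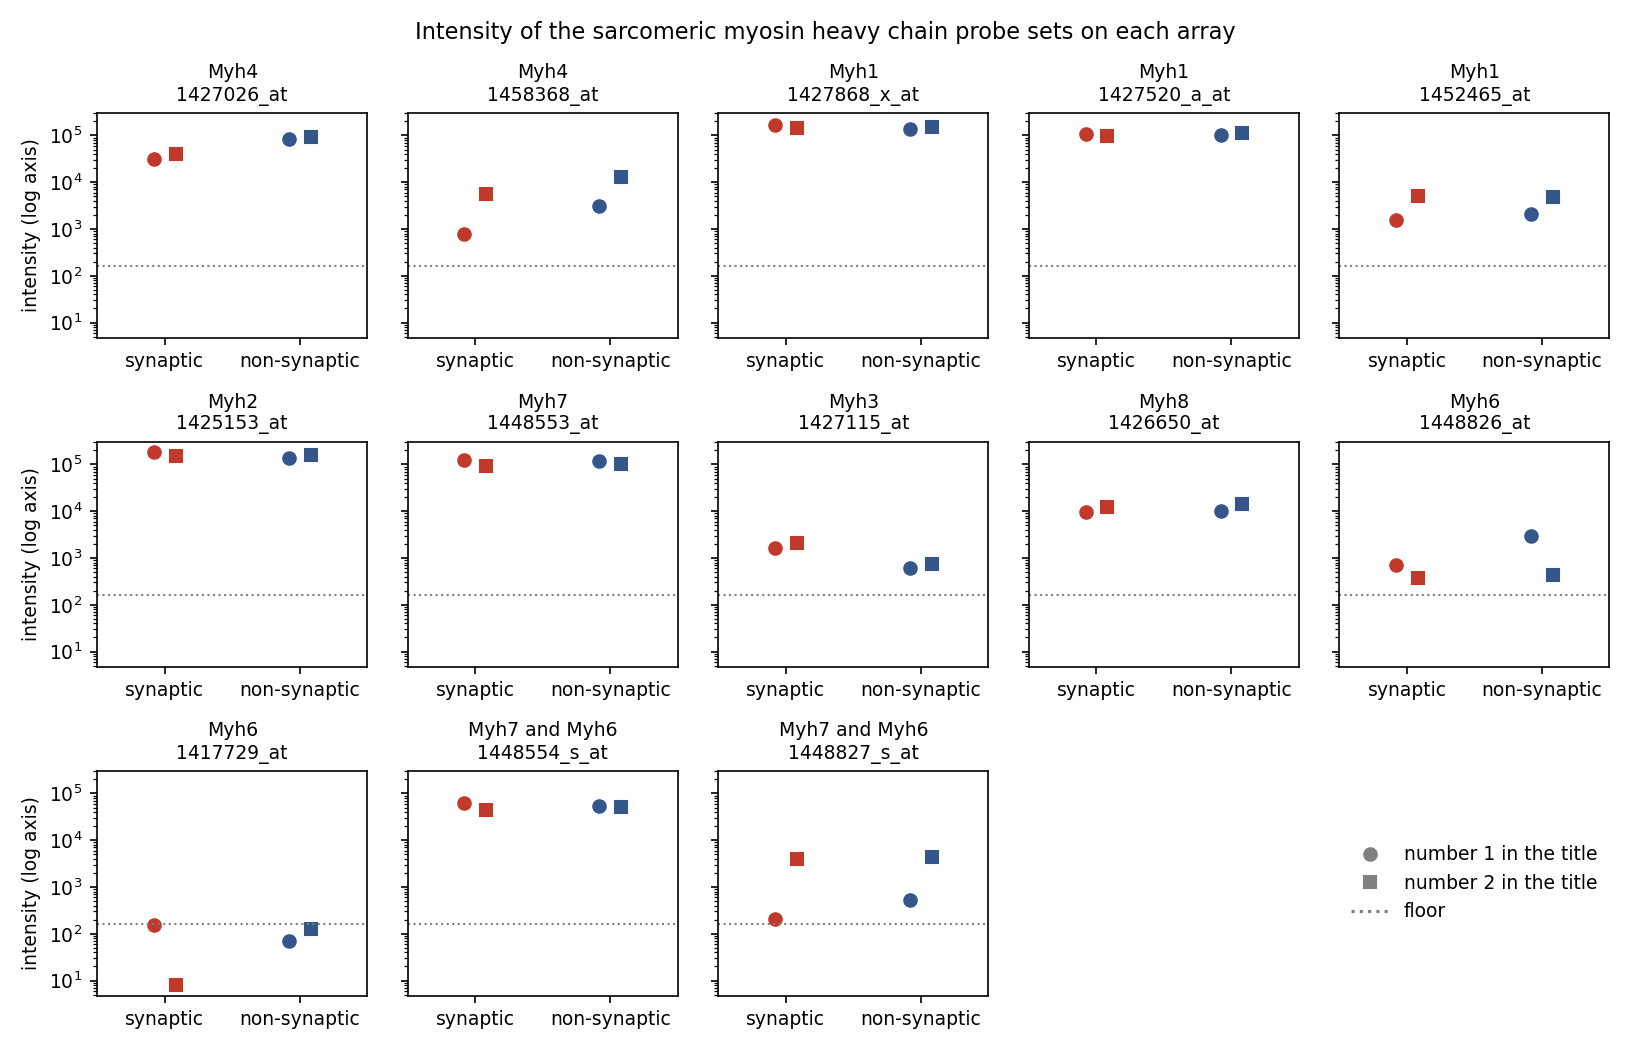
Deposited intensity, on a log axis, of each of the 13 probe sets of the sarcomeric myosin heavy chains on each of the 4 arrays, with circles and squares for arrays 1 and 2 and a dotted line at the floor of 159. The brighter Myh4 probe set was lower and the Myh3 probe set higher on both synaptic arrays than on both non-synaptic arrays, while the regions overlapped for the rest.

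The brighter probe set of Myh4, the chain of the fastest fibres (1427026_at), had intensities of 32001 and 40267 on the synaptic arrays, against 85890 and 93886 on the non-synaptic arrays. The regions did not overlap, and the gap between them was wider than the spread within either region. Synaptic arrays averaged 36134 ± 5845 and non-synaptic arrays 89888 ± 5654 (SD, n = 2 arrays each). On the log2 scale the difference, synaptic minus non-synaptic, was -1.32 ± 0.18 (SE), with a 95% interval from -1.77 to -0.88 and a limma adjusted p of 0.492. Between arrays of the same number it was -1.42 for number 1 and -1.22 for number 2. The difference was -1.49 without synaptic array 2 and from -1.39 to -1.16 when any other array was left out. Such a fit leaves 1 array in a region, with no spread there to measure, so only the size is given.

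The other Myh4 probe set (1458368_at) had intensities of 802 and 5519 on the synaptic arrays, against 3180 and 12738 on the non-synaptic arrays. The regions overlapped, because array 2 of each region was brighter than array 1. Within each number the synaptic array was the dimmer, by -1.99 and -1.21 on the log2 scale. The difference was -1.60 ± 1.08 (SE), with a 95% interval from -4.36 to 1.16 and a limma adjusted p of 0.9999. The direction was the one of the brighter probe set, with an error large enough to include no difference.

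Myh1, the chain of type IIX fibres, had 3 probe sets. The brightest (1427868_x_at) read 167794 and 144910 on the synaptic arrays and 138149 and 154300 on the non-synaptic arrays, with overlap. Its log2 difference was 0.09 ± 0.15 (SE), with a 95% interval from -0.28 to 0.47. The suffix x in its name marks probes that can bind related transcripts, and the annotation gives the accession behind it also to a probe set of Myhas, an RNA gene that lies between Myh1 and Myh4. The probe set 1427520_a_at read 109485 and 97844 on the synaptic arrays and 103105 and 112507 on the non-synaptic arrays, a difference of -0.06 ± 0.14. The dimmest (1452465_at) read 1569 and 5042 on the synaptic arrays and 2082 and 4922 on the non-synaptic arrays, and in both regions array 2 was the brighter. For the 2 brighter ones, a 2-fold difference in intensity lay outside the interval. On every array the probe sets 1427868_x_at of Myh1 and 1425153_at of Myh2 stood at or above the 99.9th percentile, at intensities between 138119 and 182762, where the highest values of any probe set ranged from 172807 to 202114. Whether intensity still rises in proportion to the transcript at that level was not tested, so these intervals limit the difference in intensity only.

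Myh2, the chain of type IIA fibres, read 182762 and 148318 on the synaptic arrays and 138119 and 158748 on the non-synaptic arrays. Its difference was 0.15 ± 0.17 (SE), with a 95% interval from -0.27 to 0.58. Myh7, the slow chain (1448553_at), read 122470 and 94032 on the synaptic arrays and 117187 and 104679 on the non-synaptic arrays. Its difference was -0.05 ± 0.18, with an interval from -0.51 to 0.42. For both genes the regions overlapped, and synaptic array 1 was the brightest of the 4 arrays. The probe set shared by Myh7 and Myh6 that was bright (1448554_s_at) read 63388 and 45312 on the synaptic arrays and 54740 and 50301 on the non-synaptic arrays, a difference of 0.03 ± 0.21. The slow chain thus showed no difference beyond array spread on either of these probe sets, and a 2-fold difference in intensity lay outside both intervals.

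The cluster promoters are printed here because the regions lay apart for Myh4 and overlapped for Myh1 and Myh2 of the same cluster. The sequences are the 220 bases before the gene's start in RefSeq, assembly GRCm38.p6, written 5′ to 3′. Capitals mark a stretch of 20 bases common to Myh4, Myh1 and Myh2, a stretch of 15 bases common to Myh4, Myh1 and Myh8, and each TATAAA on the printed strand.
Myh4 chr11:67237592-67237811, plus strand: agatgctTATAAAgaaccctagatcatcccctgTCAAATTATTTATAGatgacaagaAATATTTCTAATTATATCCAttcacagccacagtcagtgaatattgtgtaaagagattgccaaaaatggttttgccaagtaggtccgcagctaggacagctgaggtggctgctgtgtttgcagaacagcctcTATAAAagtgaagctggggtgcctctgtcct
Myh1 chr11:67199882-67200101, plus strand: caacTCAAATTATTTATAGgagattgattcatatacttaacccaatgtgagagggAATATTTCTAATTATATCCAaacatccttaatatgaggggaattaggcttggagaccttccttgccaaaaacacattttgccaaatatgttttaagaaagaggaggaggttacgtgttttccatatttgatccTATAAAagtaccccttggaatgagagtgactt
Myh2 chr11:67170807-67171026, plus strand: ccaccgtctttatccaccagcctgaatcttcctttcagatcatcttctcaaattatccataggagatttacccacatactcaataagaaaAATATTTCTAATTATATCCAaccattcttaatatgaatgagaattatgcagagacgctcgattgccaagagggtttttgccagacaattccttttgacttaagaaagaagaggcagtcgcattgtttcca
Myh8 chr11:67276904-67277123, plus strand: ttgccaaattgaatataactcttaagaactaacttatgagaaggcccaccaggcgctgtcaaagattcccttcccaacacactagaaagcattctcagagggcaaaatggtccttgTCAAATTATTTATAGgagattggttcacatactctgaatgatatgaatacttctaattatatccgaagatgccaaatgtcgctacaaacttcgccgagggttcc
Myh3 chr11:67078080-67078299, plus strand: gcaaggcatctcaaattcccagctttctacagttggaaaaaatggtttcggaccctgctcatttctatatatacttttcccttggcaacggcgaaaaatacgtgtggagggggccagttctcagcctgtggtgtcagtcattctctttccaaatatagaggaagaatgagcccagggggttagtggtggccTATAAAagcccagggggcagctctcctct

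Searched over the 250 bases before the start on both strands, the 20-base stretch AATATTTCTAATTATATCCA was held by 3 of 32851 mouse promoters (0.00913%), at 163, 165 and 130 bases before the start of Myh4, Myh1 and Myh2. The 15-base stretch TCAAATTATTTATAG was likewise held by 3, at 187, 216 and 104 bases before the start of Myh4, Myh1 and Myh8. It contains a match to the motif of MEF2, a family of muscle transcription factors, which 2.92% of all promoters hold. Of the 8 genes, Myh4, Myh1 and Myh8 held the MEF2 motif, and these matches overlap the 15-base stretch. Myh4 alone of the 8 held the CArG box, the motif of serum response factor, at 104 bases before the start, against 1.47% of all promoters. TATAAA was held by Myh4, Myh1, Myh3 and Myh8 (12.4% of all promoters), in Myh8 on the other strand only. On the printed strand Myh4, Myh1 and Myh3 held it within CTATAAAAG, at 32, 33 and 30 bases before the start. Myh4 also held it at 213 bases before the start. The motif CANNTG, the E box of myogenic factors, was held by Myh4, Myh3, Myh6, Myh7, Myh8 and Myh13 and not by Myh1 and Myh2 (66.2% of all promoters). These matches describe letters in this window only, and no binding was measured.

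Among the developmental chains, the probe set of Myh3, the embryonic chain, read 1661 and 2077 on the synaptic arrays, against 612 and 752 on the non-synaptic arrays. Both synaptic arrays lay above both others. Synaptic arrays averaged 1869 ± 294 and non-synaptic arrays 682 ± 98.8 (SD, n = 2 arrays each). The log2 difference was 1.45 ± 0.28 (SE), with a 95% interval from 0.74 to 2.17, and the limma adjusted p was 0.9999. It was 1.44 and 1.47 between arrays of the same number, and from 1.29 to 1.61 when each array was left out in turn. Myh8, the perinatal chain, read 9657 and 12560 on the synaptic arrays and 10049 and 14288 on the non-synaptic arrays. These overlapped, with array 2 the brighter in each region, and the difference was -0.12 ± 0.26 with an interval from -0.77 to 0.53. The 2 developmental chains therefore gave different estimates, with Myh3 at 1.45 and Myh8 at -0.12, and the difference between them was not tested.

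Myh6, the heart chain, had 2 probe sets of its own. The brighter (1448826_at) read 700 and 382 on the synaptic arrays and 2994 and 430 on the non-synaptic arrays. The high value was that of non-synaptic array 1 alone, and the other 3 arrays lay between 382 and 700. The difference was -1.13 ± 0.96 (SE), with a 95% interval from -3.57 to 1.30, and it was 0.27 without non-synaptic array 1. The other probe set (1417729_at) read 156 and 7.86 on the synaptic arrays and 70.8 and 124 on the non-synaptic arrays, all below the floor of 159, and was not tested. The dim probe set shared with Myh7 (1448827_s_at) read 209 and 3902 on the synaptic arrays and 522 and 4291 on the non-synaptic ones. Array 2 was the brighter in each region. Within each number the synaptic array was the dimmer, by -1.32 and -0.14 on the log2 scale. Of 10 heart muscle markers 9 had a probe set, and 5 passed the filter, with 0 called and a median difference of -0.24. Tnni3, the heart troponin I, differed by -0.51 ± 0.43, Mybpc3 by -0.24 ± 0.40, the calcium release channel Ryr2 by -0.26 ± 0.41 and the transcription factor Gata4 by 0.15 ± 0.33. Summed over the list, their intensity was 4740 and 4060 on the synaptic arrays and 6093 and 3480 on the non-synaptic arrays, the highest again on non-synaptic array 1. The single markers did not share this order, since of the 8 above the floor on any array 3 were highest on non-synaptic array 1 (Myl7, Tnni3 and Mybpc3) and 5 on a synaptic array (Nppa, Nppb, Ryr2, Nkx2-5 and Gata4). Myl7, the atrial light chain, read 414 and 462 on the synaptic arrays and 1162 and 40.4 on the non-synaptic arrays. The natriuretic peptide genes read 276 and 425 (Nppa) and 526 and 148 (Nppb) on the synaptic arrays, against 265 and 80.0 (Nppa) and 337 and 133 (Nppb) on the non-synaptic arrays. Tbx5, a heart transcription factor, was at the floor on all 4. The part of heart muscle RNA in the Myh6 value was not tested.

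**Figure D2:**
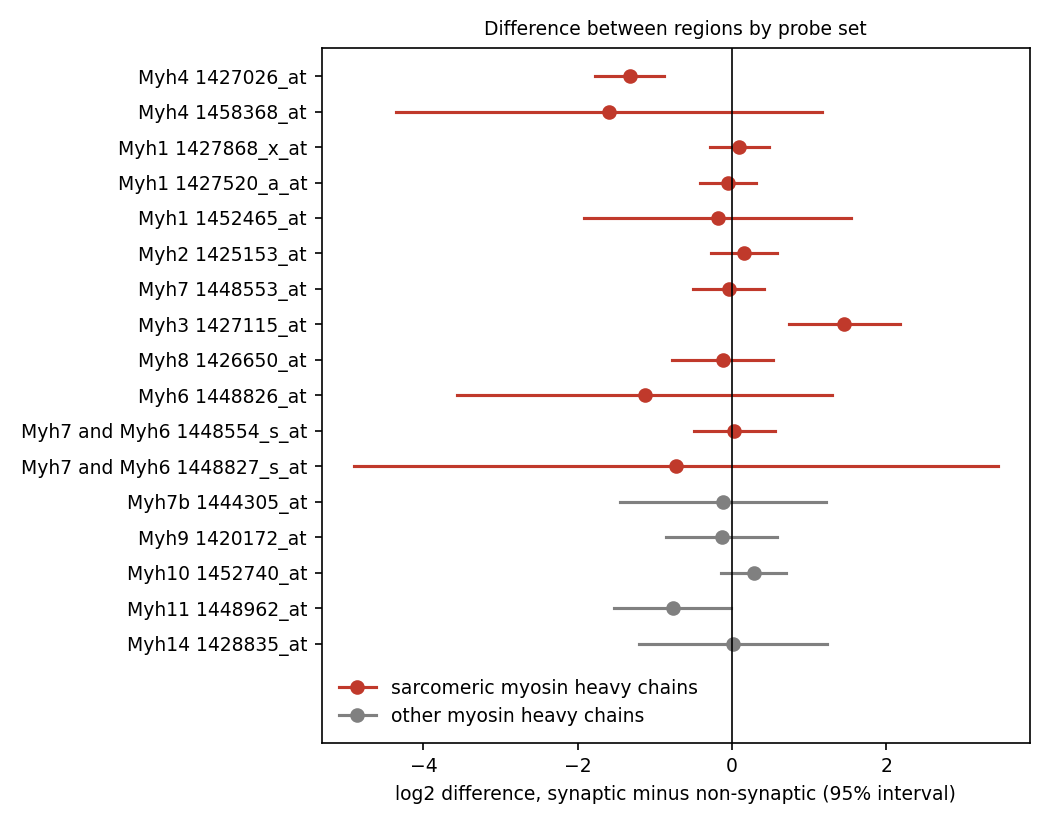
Log2 difference in intensity, synaptic minus non-synaptic, with its 95% interval from the moderated fit, for the 12 tested probe sets of the sarcomeric chains (red) and for 5 other myosin heavy chains (grey). The intervals of the brighter Myh4 probe set (-1.77 to -0.88) and of Myh3 (0.74 to 2.17) leave out 0, as does narrowly that of Myh11 (-1.53 to -0.01).

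The mix of chains cannot be read from intensities side by side, because each probe set has its own brightness per transcript. This is visible within genes, since the 3 probe sets of Myh1 averaged 156352, 103664 and 3305 on the synaptic arrays. What can be compared between regions is the log2 ratio of a pair of chains within each array, whose probe brightness is shared by both regions. The ratio of Myh4 to Myh2 was -2.51 and -1.88 on the synaptic arrays, against -0.69 and -0.76 on the non-synaptic arrays, a difference of -1.48. The ratio of Myh4 to Myh1 was -2.39 and -1.85 on the synaptic arrays, against -0.69 and -0.72 on the non-synaptic arrays, a difference of -1.42. The regions were apart for both, and Myh4 was lower relative to either chain in the synaptic region, by 2.78-fold and 2.67-fold in intensity. Because Myh2 and Myh1 were among the brightest probe sets, where proportionality was not tested, these folds describe intensities and not transcript numbers. The ratio of Myh4 to the slow chain Myh7 was -1.94 and -1.22 on the synaptic arrays, against -0.45 and -0.16 on the non-synaptic arrays, a difference of -1.28. Myh7 stood above the 99.68th percentile on every array, where proportionality was likewise not tested, so ratios with Myh7 describe intensities too.

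The ratios that leave Myh4 out differed less between the regions. The ratio of Myh1 to Myh2 was -0.12 and -0.03 on the synaptic arrays, against 0.00 and -0.04 on the non-synaptic arrays, a difference of -0.06. The ratio of Myh2 to Myh7 was 0.58 and 0.66 on the synaptic arrays, against 0.24 and 0.60 on the non-synaptic arrays, a difference of 0.20. The ratio of Myh1 to Myh7 differed by 0.14, and its sign turned when a gene's probe sets were averaged (-0.0041) and without non-synaptic array 1 (-0.021). The regions overlapped for these 3 ratios. The ratio of Myh3 to Myh4 was -4.27 and -4.28 on the synaptic arrays, against -7.13 and -6.96 on the non-synaptic arrays, a difference of 2.78. The ratio of Myh8 to Myh4 was -1.73 and -1.68 on the synaptic arrays, against -3.10 and -2.72 on the non-synaptic arrays, a difference of 1.20. All 5 ratios with Myh4 had regions that did not overlap. The exact permutation test over arrays, 2-sided, gave 0.333 for each of these 5 and 0.667 for each of the other 3 (0.533 and 0.667 after Benjamini-Hochberg adjustment over the 8 ratios), and 0.333 is the smallest value that 2 arrays against 2 can give. The 5 share Myh4, so they are not independent.

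**Figure D3:**
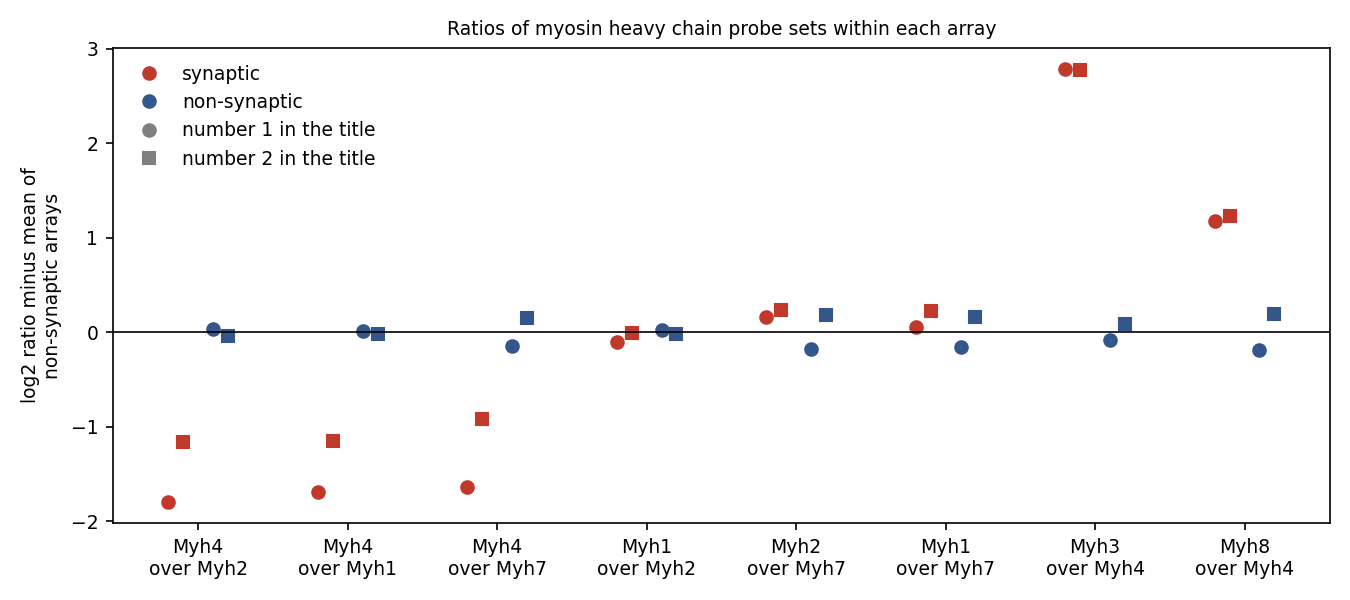
Log2 ratio of 8 pairs of myosin heavy chain probe sets within each array, set to the mean of the non-synaptic arrays, with synaptic arrays in red left of non-synaptic arrays in blue and circles and squares for arrays 1 and 2. The 3 ratios of Myh4 to an adult chain lie lower on both synaptic arrays, by -1.28 to -1.48 on average, and the ratios of Myh3 and Myh8 to Myh4 lie higher, by 2.78 and 1.20.

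The estimates for the partners of the fast chains lay nearer to 0 than that for Myh4, and the difference between them was not tested. Of 12 fast fibre genes 12 were tested, and limma called 0 higher and 0 lower. At an unadjusted p under 0.05, 0 were higher and 1 lower, against 0.986% of all probe sets tested in either direction. Their median difference was 0.04. Mybpc2, the fast form of a protein that binds myosin along the thick filament, read 22497 and 27422 on the synaptic arrays and 33832 and 40507 on the non-synaptic arrays, a difference of -0.58 ± 0.19 (SE, limma adjusted p = 0.9999). Actn3, the alpha-actinin of fast fibres, differed by -0.18 ± 0.14, and these 2 of the 12 were apart and lower, against 9.98% of all probe sets tested. Mylpf, the fast regulatory light chain, differed by 0.10 ± 0.17, Tnni2, the fast troponin I, by 0.03 ± 0.14, and Tnnc2, the fast troponin C, by 0.07 ± 0.14. Mylpf had the highest intensity of any probe set on both synaptic arrays and on non-synaptic array 2, and Tnni2 on non-synaptic array 1. As for Myh1 and Myh2, proportionality at that level was not tested, so the estimates of such bright partners describe intensity only. Mybpc2 and Actn3 were dimmer. The slow fibre genes, 11 of 12 tested, had a median of 0.12, with 0 called and 0 at an unadjusted p under 0.05 in either direction. Csrp3, a LIM protein of the Z disc, read 32809 and 23246 on the synaptic arrays and 21158 and 16636 on the non-synaptic arrays, a difference of 0.56 ± 0.24. It was the 1 of the 11 that was apart and higher, against 9.89% of all probe sets tested. The slow light chain Myl3 differed by 0.12 ± 0.17, the slow troponin C Tnnc1 by 0.25 ± 0.31, the slow calcium pump Atp2a2 by -0.01 ± 0.14, Myoz2 by 0.10 ± 0.15 and the calcium store protein Casq2 by 0.26 ± 0.23.

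Genes that fold myosin or build the thick filament showed no called difference. Of 13 such genes 11 were tested, with a median of -0.01, 0 called by limma and 0 at an unadjusted p under 0.05. Titin, encoded by Ttn, differed by -0.01 ± 0.14, the myosin-binding Mybpc1 by 0.04 ± 0.14, the muscle methyltransferase Smyd1 by -0.29 ± 0.21 and the ubiquitin ligase Trim63 by 0.15 ± 0.37. Mybph, related to the myosin-binding proteins, differed by -0.50 ± 0.27, with regions apart. It was the 1 of the 11 that was apart and lower, against 9.98% of all probe sets tested. Of 23 regulators of fibre type 20 were tested, with a median of -0.03, a range from -0.34 to 0.17, 0 called and 0 at an unadjusted p under 0.05. The named members were Maf, a large Maf factor of a family known in mouse to activate Myh4, at -0.19 ± 0.21, the coactivator Ppargc1a at -0.34 ± 0.27, Nfatc3 at -0.29 ± 0.19, Mef2c at -0.03 ± 0.17, Tead1 at 0.08 ± 0.18 and Eya1 at 0.17 ± 0.21. No estimate for a regulator reached 2-fold in either direction.

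Around the developmental chains, 9 of 10 genes of immature sarcomeres and myogenesis were tested, with a median of -0.05, 0 called and 0 at an unadjusted p under 0.05. Chrng, the fetal subunit of the acetylcholine receptor, was the member below the filter, and it read 361 and 346 on the synaptic arrays and 82.2 and 94.4 on the non-synaptic arrays. The synaptic values lay above the floor and the non-synaptic values below it. Tnnt2, the troponin T of heart and immature muscle, read 3802 and 2119 on the synaptic arrays and 2200 and 854 on the non-synaptic arrays, a difference of 1.05 ± 0.54. Ncam1, an adhesion molecule of immature and denervated fibres, differed by 0.47 ± 0.27 with regions apart. It was the 1 of the 9 tested that was apart and higher, against 9.89% of all probe sets tested. Actc1, the actin of heart and immature muscle, differed by -0.19 ± 0.57, the myogenic factor Myod1 by -0.05 ± 0.37, Cdh15 by -0.15 ± 0.27 and the fusion protein gene Mymx by -0.26 ± 0.41. Muscle spindles, the stretch receptors whose fibres are known to keep Myh3 and Myh6, were checked as another source of developmental chains. Of 6 spindle markers 5 had a probe set and 2 were tested, Egr3 at 0.29 ± 0.37 and Vcan at 0.01 ± 0.39. Their summed intensity was 4426 and 3400 on the synaptic arrays and 2344 and 2378 on the non-synaptic arrays, and Gdnf was at the floor on all 4 arrays. Etv4, an ETS factor of that list, was below the filter and read 2073 and 710 on the synaptic arrays and 97.3 and 69.4 on the non-synaptic arrays. Etv4 alone carried most of the difference in the sum, which without it was 2353 and 2690 on the synaptic arrays and 2246 and 2309 on the non-synaptic arrays. The part of spindles in the Myh3 difference was not tested.

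Markers of other cells differed between the regions. The 8 Schwann cell markers with a probe set summed to 106015 and 115221 on the synaptic arrays, against 30705 and 32690 on the non-synaptic arrays, and 7 of 7 tested were apart and higher, against 9.89% of all probe sets tested, with a median of 1.37. Limma called 1 of them, the myelin gene Mbp, at 3.50 ± 0.17 (adjusted p = 0.0326). Ncmap, a myelin membrane protein, differed by 3.54 ± 0.26 and Cnp, a myelin enzyme, by 1.68 ± 0.21. The 7 fat cell markers with a probe set summed to 116444 and 111939 on the synaptic arrays, against 144090 and 146222 on the non-synaptic arrays, and 5 of 5 tested were apart and lower, against 9.98% of all probe sets tested, with a median of -2.57. Fabp4 made up most of these sums, and the other 6 markers summed to 4722 and 5659 on the synaptic arrays, against 24851 and 28163 on the non-synaptic arrays. Limma called 1 of them, the fat hormone gene Adipoq, at -5.43 ± 0.26 (adjusted p = 0.0326). The fatty acid carrier Fabp4 differed by -0.12 ± 0.13, the desaturase Scd1 by -1.50 ± 0.24 and the hormone Retn by -2.57 ± 0.61. Pck1, an enzyme of glycerol and glucose synthesis, lay below the floor in the synaptic region and read 2656 and 3053 on the non-synaptic arrays. The filter level was a log2 value of 8.87. On both synaptic arrays Adipoq (7.54 and 7.56) and Pck1 (both 7.31) lay below it, as did Retn on array 1 (7.73). On both non-synaptic arrays Ncmap (8.75 and 8.55) and Egr2 (8.02 and 8.86) lay below it. These genes were tested only through higher values in the other region, so the counts, medians and Adipoq call follow partly from the filter. Of the Schwann cell and fat cell markers with a probe set none was at the floor on all 4 arrays, and their part in the differences of Myh4 and Myh3 was not tested. In pieces of whole muscle, fewer fibres of a type and less of a transcript per fibre cannot be told apart.

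**Figure D4:**
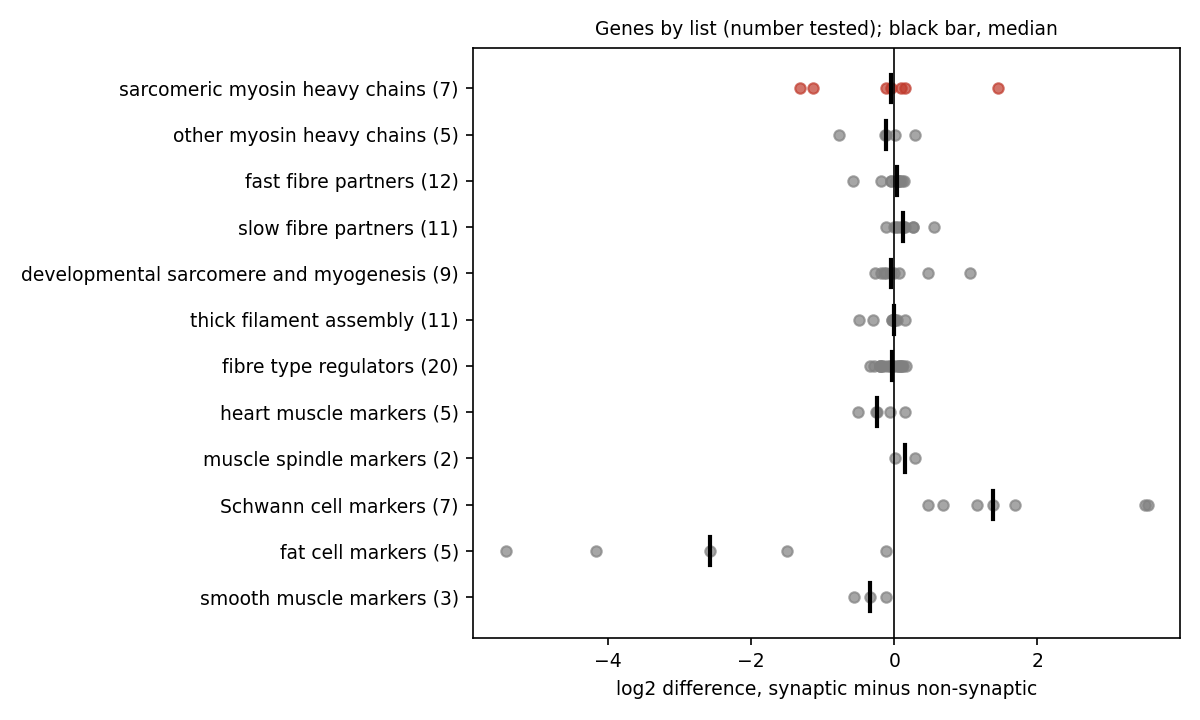
Log2 difference, synaptic minus non-synaptic, of each tested gene (points) by list, with the number tested in brackets and the median as a black bar. The sarcomeric chains (red) reach from -1.32 for Myh4 to 1.45 for Myh3, whereas the fast fibre partners reach from -0.58 to 0.13 and the regulators of fibre type from -0.34 to 0.17. Several fast fibre partners were among the brightest probe sets, where proportionality of intensity to transcript was not tested. Some Schwann cell and fat cell markers passed the filter only through their values in 1 region.

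The other myosin heavy chains, which the rule for members leaves out, gave a further comparison. Of 6 such chains 5 were tested, with a median of -0.12 and 0 called by limma. When the unadjusted p was held to 0.05, 1 of the 5 was lower and 0 higher, against 0.986% of all probe sets tested in either direction. Myh11, the smooth muscle chain, read 1649 and 2462 on the synaptic arrays and 2991 and 3939 on the non-synaptic arrays, a difference of -0.77 ± 0.30 (SE, limma adjusted p = 0.9999), with regions apart. Of 4 smooth muscle markers 3 were tested, and Tagln, Myocd and Acta2 differed by -0.34 ± 0.18, -0.56 ± 0.37 and -0.12 ± 0.16. Of these 3 markers, 2 were apart and lower, against 9.98% of all probe sets tested. The part of smooth muscle in the Myh11 difference was not tested. The non-muscle chain Myh10 read 12008 and 11885 on the synaptic arrays and 9784 and 9867 on the non-synaptic arrays, a difference of 0.28 ± 0.16 with regions apart. Of the 5 chains, 1 was thus apart and lower and 1 apart and higher, against 9.98% and 9.89% of all probe sets tested. Myh9, another non-muscle chain, differed by -0.13 ± 0.28, Myh14 by 0.01 ± 0.48 and Myh7b, a chain related to Myh7, by -0.12 ± 0.52. In the cluster itself, Myhas read 3928 and 5047 on the synaptic arrays and 3871 and 5330 on the non-synaptic arrays, a difference of -0.03 ± 0.26. The RNA gene 2310065F04Rik, also named linc-Myh, lies between Myh3 and Myh2 and differed by 0.28 ± 0.27. The genes Myhas and 2310065F04Rik were added because of their place in the cluster and fall outside the rule for naming genes.

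The genes most like Myh4 and Myh3 were found by the distance between log2 profiles over the 4 arrays, each centred on its own mean, among 12361 other genes. Closest to Myh4 were Gapdhs at a distance of 0.30, Nnat at 0.32, Leng9 at 0.33, Car3 at 0.34 and Pi16 at 0.35. Car3, a carbonic anhydrase of muscle and fat, read 12622 and 18006 on the synaptic arrays and 28714 and 41398 on the non-synaptic arrays. Gapdhs read 332 and 352 on the synaptic arrays and 741 and 1029 on the non-synaptic arrays, much nearer the floor of 159 than Myh4. Closest to Myh3 were Fam178b at 0.25, Hs6st2 at 0.29, Scn3b at 0.34, Arhgap19 at 0.35 and Pmp22 at 0.36. Scn3b, a sodium channel beta subunit, read 4400 and 4546 on the synaptic arrays and 1703 and 1592 on the non-synaptic arrays. Pmp22, a protein of peripheral myelin and listed among the Schwann cell markers, read 45426 and 51047 on the synaptic arrays and 21145 and 21915 on the non-synaptic arrays. Over 4 arrays such likeness largely repeats the size of the region difference, and it is given as a description.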

How the data were processed

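Each of the 4 one-colour arrays, 2 a region, carried hemi-diaphragm RNA. The authors deposited 1 linear intensity for every probe set. How images were scanned, summarised and scaled was not given in the sources. Because all 4 arrays had a 2% trimmed mean of 2500, that scale was kept, which hides any change common to most transcripts. Median intensity was 658 and 769 on the synaptic arrays and 704 and 738 on the non-synaptic arrays, with 18.7% to 21.3% of values at the floor.

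Intensities below 159, the 20th percentile, were set to that value before log2. The 64 control probe sets and those with a mean log2 below 8.87, the 40th percentile, were left out, which left 26480. Limma 3.58.1 (R 4.3.3; lmFit, eBayes with an intensity trend, 2-sided, Benjamini-Hochberg, threshold 0.05) tested the regions, on 2 residual degrees of freedom plus 3.16 from the prior. The scheme was run on simulated arrays with known changes and independent noise. These arrays lacked any likeness between same-numbered arrays, so the run does not show how the scheme handles such likeness. Gene symbols came from the platform annotation, updated through Entrez identifiers with RefSeq tables of GRCm38.p6 for 34754 of 34958 single-gene probe sets. A gene was read from its brightest single-gene probe set.

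All member genes are named with all their probe sets, and of each other list the 4 tested genes of lowest unadjusted p and the 2 of highest mean, as far as it had them. For Myh4 and Myh3 the 5 nearest genes by profile are named. Other genes were chosen for mention after their values were seen: Chrng, Egr2, Etv4, Gdnf, Myl7, Nkx2-5, Nppa, Nppb, Tbx5, Myhas and 2310065F04Rik. Sums without Etv4 or Fabp4 were added then too. The members and lists were chosen with earlier results of these data known. Alternatives were other scalings, filters, floors, variance priors, a block for replicate number, each array left out in turn, and the mean of a gene's probe sets.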

Additional observations from a re-analysis of the deposited data

How the results depend on the processing

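The precision is limited by 2 arrays a region and, for dim probe sets such as those of Myh6, by signal near the floor. Limma's calls over the whole array, 1 higher and 2 lower, turned to 56 higher and 18 lower with the replicate block. Median centring gave 6 higher, the filter at the 60th percentile 3 higher, and the floor at the 40th percentile 1 lower. There were 0 of either without a filter, without an intensity trend or without moderation. With a single array left out, 1 region rests on 1 array, so calls from these fits are not counted. The cause of these changes in the calls was not tested.

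Same-numbered arrays resembled each other more than arrays of a region did, with deviations from the region means correlated at 0.63 over probe sets, but 2 pairs do not show that the numbers pair the arrays. With the replicate block Myh4 passed (limma adjusted p = 0.00117) and Myh3 came to 0.0510. Other filters, floors, variance priors and the block cannot move the estimates of Myh4, Myh3 and Myh2, so they say nothing about the sign. The scalings, the arrays left out and the mean of a gene's probe sets can. Over these Myh4 lay between -1.49 and -1.16 and Myh3 between 1.29 and 1.61, with no change of sign. Myh3 and Myh6 could not be tested with the filter at the 60th percentile. Over the scalings and arrays left out Myh2 kept its sign, between 0.002 and 0.30. Signs turned for Myh1 with the mean of its probe sets (-0.050). Leaving out each array, Myh1 lay between -0.011 and 0.20, Myh6 between -2.53 and 0.27, Myh7 between -0.24 and 0.15 and Myh8 between -0.38 and 0.13. The floor at the 40th percentile and the block left all ratios as they were and could not change a sign. With quantile normalization, each array left out and, where a gene had several, its probe sets averaged, the 5 ratios with Myh4 kept their sign. So did Myh1 over Myh2 and Myh2 over Myh7. Myh1 over Myh7 lay between -0.021 and 0.30 with each array left out, and was -0.0041 with the mean of all probe sets.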

Other observations

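Some probe sets of the family differed more between the array numbers than between the regions. Myh14, a non-muscle chain that skeletal muscle also makes, read 16243 on synaptic array 1 and 7815 on synaptic array 2, and 15686 and 7972 on non-synaptic arrays 1 and 2. The dim Myh1 probe set 1452465_at read 1569 and 5042 on synaptic arrays 1 and 2, and 2082 and 4922 on non-synaptic arrays 1 and 2. The dim probe set shared by Myh7 and Myh6, 1448827_s_at, read 209 and 3902 on synaptic arrays 1 and 2, and 522 and 4291 on non-synaptic arrays 1 and 2. In Myh14 array 1 was the brighter of each region and in the other 2 probe sets array 2 was, so the order was not the same for all. These probe sets were chosen after their values were seen.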
